A study of Homo sapiens with 10 samples.

Results

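ZEB1 and 8 other genes that set or mark the balance between epithelial and mesenchymal cell states were followed in RNA of extracellular vesicles (EVs) shed by PC3, an established line of human prostate cancer that was grown from a metastasis in bone. The members are ZEB1, ZEB2, SNAI1, SNAI2, TWIST1, CDH1, CDH2, GRHL2 and ESRP1, which are 9 of the 94946 entries of the deposited count table and were found in it by their GENCODE release 29 symbols. The set was chosen by the ZEB1 counts of these libraries, which had been seen to be higher in the faster pellets, where mRNAs of matrix and mesenchymal genes were lower. Differences of ZEB1 between pellets and from the cells are therefore given as a description and carry no test. The same holds for differences of the other members from the slowest pellet.

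Vesicles were pelleted from PC3 cultures at 3 spins, named 2.8K, 10K and 100K in the labels, where the unit is missing. The resulting groups are EV 2.8K, EV 10K and EV 100K. Each spin has 3 libraries of total RNA, numbered by set, and 1 further library was made from whole PC3 cells with no vesicle isolation. All groups come from the same line, with no treatment named in the labels, grown in medium with fetal bovine serum, and the libraries were prepared with a stranded total RNA kit for low input. Total counts ran from 5424964 to 28735081 per library, and the cell library was the deepest. No source used here says that the sets were separate cultures, so p-values measure the spread between these libraries, which may be technical.

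Epithelial cells hold together through E-cadherin, and mesenchymal cells typically use N-cadherin instead. The transcription factors of the ZEB, SNAIL and TWIST families repress epithelial genes such as the E-cadherin gene, while GRHL2 and ESRP1 act on the epithelial side, as a transcription factor and a splicing regulator. The miR-200 microRNAs repress ZEB1 and ZEB2 through sites in their 3′ untranslated regions (UTRs), and the ZEB proteins in turn repress the miR-200 genes.

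The miR-200 microRNAs pair with their targets through the seed, bases 2 to 8, which is in capitals in the mature sequences below (RefSeq, GRCh38.p14). They are shown because ZEB1 and ZEB2 are known targets of theirs, and they fall into a pair of seed groups.
hsa-miR-141-3p: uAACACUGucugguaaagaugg
hsa-miR-200a-3p: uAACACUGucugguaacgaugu
hsa-miR-200b-3p: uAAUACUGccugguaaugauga
hsa-miR-200c-3p: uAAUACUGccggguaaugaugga

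The DNA letters complementary to these seeds are CAGTGTT for miR-141 and miR-200a and CAGTATT for miR-200b and miR-200c. On the sense strand of the transcript with the GENCODE release 29 3′ UTR used here, ZEB1 (2549 bases of 3′ UTR) held 6 copies of CAGTATT and 3 of CAGTGTT, 9 in all. All 9 lie in exon 9 of 9. The first and last copies of CAGTATT and the first copy of CAGTGTT are shown with the bases around them, the motif in capitals.
ZEB1 chr10:31527618-31527642 (GRCh38, plus strand): attgttttatcttatCAGTATTatc
ZEB1 chr10:31528031-31528055 (GRCh38, plus strand): caaaatcatcagaatCAGTGTTtgt
ZEB1 chr10:31529213-31529237 (GRCh38, plus strand): tcttttcatcattatCAGTATTttc

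Of 19163 genes with an annotated 3′ UTR, 28.2% held at least 1 copy of either motif. Among 1184 UTRs within 10% of the length of the ZEB1 UTR the share was 46.9%, and 1 of them, ZEB1 itself, held 9 or more. ZEB2 (5370 bases) also held 9 copies, ESRP1 held 2, and GRHL2 and SNAI2 held 1 each. SNAI1, TWIST1, CDH1 and CDH2 held 0. A match in these letters is a description and does not show a bound site. The count table has entries for the hairpins of MIR200A, MIR200B, MIR200C, MIR141, MIR429 and MIR205, and each had 0 counts in all 10 libraries. How far these total RNA libraries capture such short RNAs was not tested. Absence of the microRNAs can therefore not be read from these counts.

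ZEB1, a zinc finger repressor of epithelial genes, had the highest level per kilobase of exon of all members in every EV library. The gene (ENSG00000148516.21) lies on the plus strand at chr10:31318495-31529814 on GRCh38 and has 8650 exon bases over 25 annotated transcripts. In CPM (counts per 1e+06 of the library total, scaled by TMM factors), ZEB1 reached 245, 270.3 and 281 in the EV 2.8K libraries and 956, 705 and 924 in the EV 10K libraries. The EV 100K libraries held 1345, 984 and 1172 CPM and the cell library 56.1 CPM (95% Poisson interval 53.6 to 58.6, counting error only). The 3 pellets did not overlap, and all 9 EV libraries stood above the cells. Of all 15525 genes tested, 11.4% had all EV 10K libraries above all EV 2.8K libraries. The share was 23.5% for EV 100K above EV 2.8K and 19.2% for EV 100K above EV 10K. CPM are relative to the library, and more vesicles with ZEB1 RNA cannot be told apart from more ZEB1 RNA per vesicle.

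The mean level was 266 ± 18.3 CPM in EV 2.8K, 862 ± 137 CPM in EV 10K and 1167 ± 180.4 CPM in EV 100K (SD, n = 3 each). EV 10K was thus 3.25-fold and EV 100K 4.39-fold above EV 2.8K in mean CPM. In the fit over all genes, the log2 fold change of ZEB1 was 1.70 (SE 0.19) for EV 10K against EV 2.8K, 2.13 (SE 0.20) for EV 100K against EV 2.8K and 0.43 (SE 0.19) for EV 100K against EV 10K. Of all genes tested, 8.05%, 8.72% and 33.1% had a higher log2 fold change in these comparisons. By CPM, ZEB1 ranked 718, 538 and 482 among all entries in the EV 2.8K libraries, 114, 155 and 119 in the EV 10K libraries, 80, 98 and 83 in the EV 100K libraries, and 3595 in the cells.

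Against the cells, the mean ZEB1 level was 4.74-fold higher in EV 2.8K, 15.4-fold higher in EV 10K and 20.8-fold higher in EV 100K. In the edgeR fit, the EV mean of ZEB1 against the cell library had a log2 fold change of 3.53 (SE 0.37). This mean holds the pellets whose ZEB1 counts were used to choose the set, so no p-value is given. In that comparison 4.43% of 22370 genes passed the edgeR quasi-likelihood test, 2.56% higher and 1.88% lower in EVs. Of all genes tested, 4.81% had all EV libraries above the cells, and 5.05% had a log2 fold change above that of ZEB1. The cell library has no replicate, so its spread was assumed to be that of the EV libraries. There are 3 entries that overlap ZEB1 in the annotation: the antisense gene ZEB1-AS1 reached at most 44 counts in a library, the pseudogene SPTLC1P1 at most 12, and the pseudogene AL117340.1 had 0.

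ZEB2, the paralogue of ZEB1, was near the detection limit. Its counts were 0, 19 and 0 in EV 2.8K, 0, 23 and 0 in EV 10K, 10, 0 and 21 in EV 100K, and 12 in the cells. It was thus detected in 4 of 9 EV libraries, never in all libraries of a pellet. Its log2 fold changes had SEs too large to give a direction: 1.29 (SE 2.48) for EV 10K against EV 2.8K, 1.99 (SE 2.53) for EV 100K against EV 2.8K and 0.71 (SE 2.47, adjusted p = 0.935, edgeR) for EV 100K against EV 10K. Against the cells it was 1.26 (SE 3.81, adjusted p = 1.00, edgeR). Per kilobase of exon, ZEB1 was at 135 ± 20.9 CPM and ZEB2 at 0.0630 ± 0.0669 CPM in EV 100K (SD, n = 3).

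**Figure D1:**
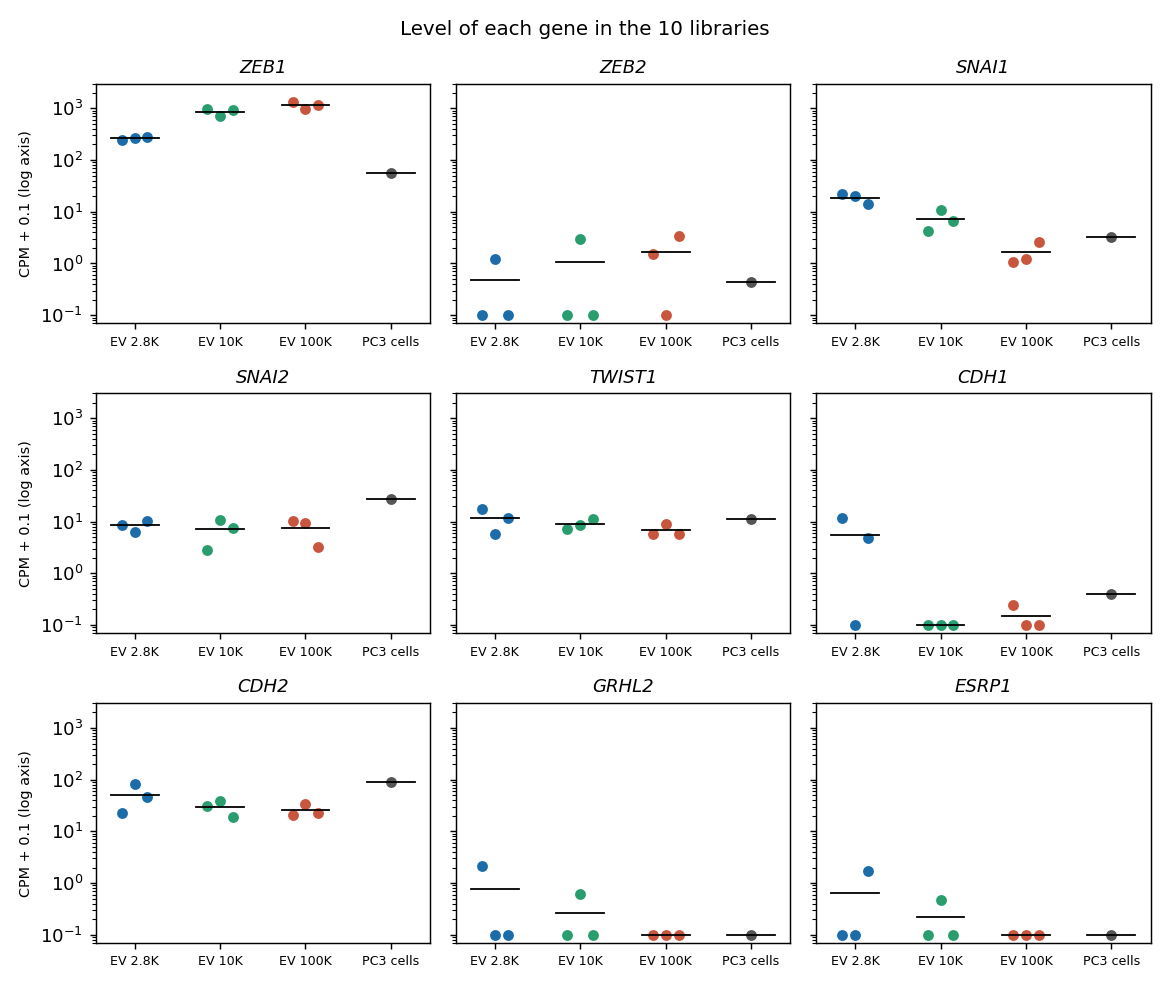
Level of each of the 9 genes in every library, in CPM plus 0.1 on a log axis; points are libraries, lines are group means, and points at 0.1 have no counts. ZEB1 stands at 245 CPM or more in every EV library, against 56.1 CPM in the cells, while SNAI1 is highest in EV 2.8K and CDH1, GRHL2, ESRP1 and ZEB2 are at 0 in many libraries.

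SNAI1, the SNAIL family repressor that acts directly on the E-cadherin promoter, had the opposite order to ZEB1. It was at 21.8, 20.1 and 13.9 CPM in EV 2.8K, 4.11, 10.9 and 6.54 CPM in EV 10K, 0.982, 1.10 and 2.54 CPM in EV 100K, and 3.13 CPM in the cells. The 3 pellets did not overlap, and the EV 100K libraries rested on 7, 6 and 16 counts. Of all genes tested, 10.1% had all EV 10K libraries below all EV 2.8K libraries. The share was 21% for EV 100K below EV 2.8K. The log2 fold change was -1.37 (SE 0.71) for EV 10K against EV 2.8K and -3.59 (SE 0.79) for EV 100K against EV 2.8K, a 12.0-fold lower level.

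The p-values of SNAI1 for EV 100K against EV 10K are a description, since lower mesenchymal mRNAs in the faster pellets had been seen. In that contrast SNAI1 had a log2 fold change of -2.22 (SE 0.76), with all 3 EV 100K libraries below all 3 EV 10K libraries. It did not pass the edgeR quasi-likelihood test (adjusted p = 0.0704), and it passed DESeq2's Wald test (adjusted p = 0.0206), with a range of 0.0206 to 0.295 over all alternatives. In this comparison 10.9% of 15525 genes passed (3.7% higher and 7.23% lower), and 16.7% had all EV 100K libraries below all EV 10K libraries. Against the cells, the EV mean of SNAI1 did not pass (log2 0.93, SE 1.25, adjusted p = 0.977, edgeR). The cell level of 3.13 CPM lay between the EV 10K and the EV 100K libraries. The ratio of ZEB1 to SNAI1 counts was 11.3, 13.5 and 20.3 in EV 2.8K, 233, 64.5 and 141 in EV 10K, 1369, 894.5 and 461 in EV 100K, and 17.9 in the cells.

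SNAI2, the second SNAIL family member here, showed no order between pellets. It was at 8.48, 6.15 and 10.3 CPM in EV 2.8K, 2.78, 10.8 and 7.58 CPM in EV 10K, 10.2, 9.17 and 3.18 CPM in EV 100K, and 26.8 CPM in the cells. The pellets overlapped, with a log2 fold change of 0.09 (SE 0.81, adjusted p = 0.976, edgeR) for EV 100K against EV 10K. All 9 EV libraries were below the cell library, as were 13% of all genes tested, but the difference did not pass (log2 -1.80, SE 0.90, adjusted p = 0.374, edgeR).

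TWIST1, a basic helix-loop-helix factor of the mesenchymal programme, was at 17.3, 5.67 and 11.9 CPM in EV 2.8K, 7.11, 8.42 and 10.99 CPM in EV 10K, 5.75, 8.98 and 5.56 CPM in EV 100K, and 11.3 CPM in the cells. The EV libraries of different pellets overlapped and lay on both sides of the cells. Its log2 fold change was -0.39 (SE 0.70, adjusted p = 0.845) for EV 100K against EV 10K and -0.33 (SE 1.05, adjusted p = 1.00) for EVs against cells in edgeR's test.

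CDH2, which encodes N-cadherin, was lower in EVs than in cells. It was at 22.6, 83.4 and 45.3 CPM in EV 2.8K, 31.4, 38.2 and 18.6 CPM in EV 10K, 20.6, 33.5 and 22.7 CPM in EV 100K, and 88.8 CPM in the cells. All 9 EV libraries were below the cells, as in 13% of all genes tested. EV 2.8K replicate 2, at 83.4 CPM, was the closest to the cells. The EV mean of CDH2 holds the faster pellets, where lower mesenchymal mRNAs had been seen, so its p-value is a description. Against the cell library, which has no replicate, the EV mean had a log2 fold change of -1.39 (SE 0.41, adjusted p = 0.0184, edgeR), a 2.62-fold lower level. This call was lost with DESeq2 (adjusted p = 0.179) and without EV 10K replicate 3 (adjusted p = 0.0547), with a range of 0.00587 to 0.179 over all alternatives. Between pellets the log2 fold change was -0.78 (SE 0.43) for EV 10K against EV 2.8K, -0.98 (SE 0.44) for EV 100K against EV 2.8K and -0.21 (SE 0.43, adjusted p = 0.874, edgeR) for EV 100K against EV 10K.

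CDH1, which encodes E-cadherin, was found almost only in EV 2.8K. Its counts were 154, 0 and 54 in EV 2.8K, 0 in all 3 EV 10K libraries, 1, 0 and 0 in EV 100K, and 10 in the cells. The 2 EV 2.8K libraries with counts reached 11.8 and 4.68 CPM, against 0.290 CPM in the cells, and EV 2.8K replicate 2 had none. GRHL2 had 27, 0 and 0 counts in EV 2.8K, 0, 4 and 0 in EV 10K, and 0 in EV 100K and in the cells. ESRP1 had 0, 0 and 19 counts in EV 2.8K, 0, 3 and 0 in EV 10K, and 0 in EV 100K and in the cells. A count of 0 allows up to 0.0869 CPM in the cell library and up to 0.55 CPM in the shallowest EV library (3 counts). These 3 epithelial members did not pass the filter on low counts, so 6 of the 9 members were tested between pellets. In the fit with the cells all 9 passed it, and none of these 3 passed the test (adjusted p = 0.989 for CDH1 and 1.00 for GRHL2 and ESRP1, edgeR). No fold is given for them, since whole groups had no count.

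**Figure D2:**
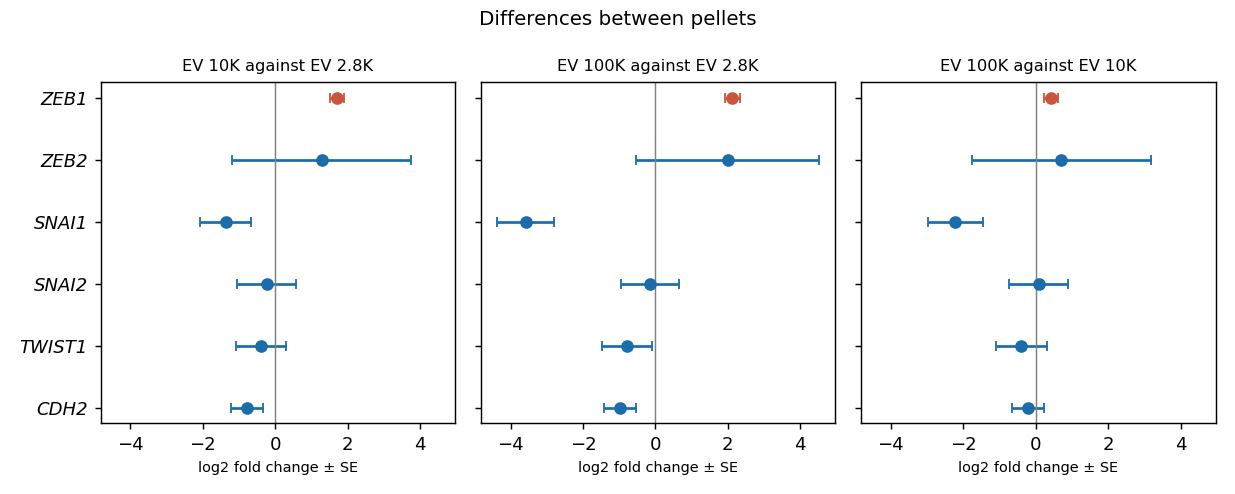
Log2 fold change (points) with its SE (bars) for the 6 members tested between pellets, from the edgeR fit on the 9 EV libraries. ZEB1 lies at 1.70, 2.13 and 0.43 and SNAI1 at -1.37, -3.59 and -2.22, while the bars of ZEB2 cross 0 in all 3 panels.

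The share of ZEB1 in the summed CPM of all 9 members, not scaled by length and set side by side across libraries only, was 74.5, 69.9 and 76.2% in EV 2.8K, 95.5, 90.7 and 95.5% in EV 10K, 97.2, 94.9 and 96.9% in EV 100K, and 30.0% in the cells. Per kilobase of exon, levels in EV 2.8K were 30.7 ± 2.12 CPM for ZEB1, 11.02 ± 2.47 for SNAI1, 10.2 ± 6.21 for CDH2, 5.71 ± 2.85 for TWIST1 and 2.45 ± 0.614 for SNAI2 (SD, n = 3). In EV 10K the same scale gave 99.6 ± 15.8 CPM for ZEB1, 5.94 ± 2.02 for CDH2, 4.35 ± 0.970 for TWIST1, 4.27 ± 2.05 for SNAI1 and 2.08 ± 1.19 for SNAI2. In EV 100K it gave 135 ± 20.9 CPM for ZEB1, 5.18 ± 1.401 for CDH2, 3.33 ± 0.946 for TWIST1, 2.22 ± 1.12 for SNAI2 and 0.914 ± 0.515 for SNAI1. The order in the cells was CDH2 (17.9 CPM), SNAI2 (7.90 CPM), ZEB1 (6.48 CPM), TWIST1 (5.54 CPM) and SNAI1 (1.85 CPM). In each pellet ZEB1 lay apart from the others, and below it every pair of neighbours in the order overlapped in mean ± SD.

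The genes whose levels over the 9 EV libraries were most like ZEB1 were named by the Pearson correlation of log2(CPM + 1), among genes with a mean of at least 5 CPM, leaving out entries with clone, catalogue or pseudogene names, of which 2 had a higher r than the last gene named. They were EIF5B (r = 0.994), a translation initiation factor, AGO1 (0.993), an Argonaute protein of small RNA silencing, MAP4K4 (0.992), a kinase, NBPF19 (0.991), ZNHIT6, the ribosomal protein gene RPL14, PRPF38B and ZC3H13 (0.989 each), the WNT ligand gene WNT7A and NUDT16 (0.988 each). The points share their libraries and the step between pellets, and of 11113 genes compared 551 (4.96%) had an r of at least 0.9. From the slowest to the fastest spin, EIF5B had mean levels of 402, 1371 and 1796 CPM, against 159 CPM in the cells. ZC3H13 was at 418, 1520 and 1707 CPM in the pellets and at 70.6 CPM in the cells. ZNHIT6 was the only gene named here with a lower mean in EV 2.8K (48.2 CPM) than in the cells (60.0 CPM). PRPF38B was at 84.3 CPM in EV 2.8K and 78.4 CPM in the cells. RPL14 and NBPF19 belong to families with near-identical copies, so their counts are uncertain.

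**Figure D3:**
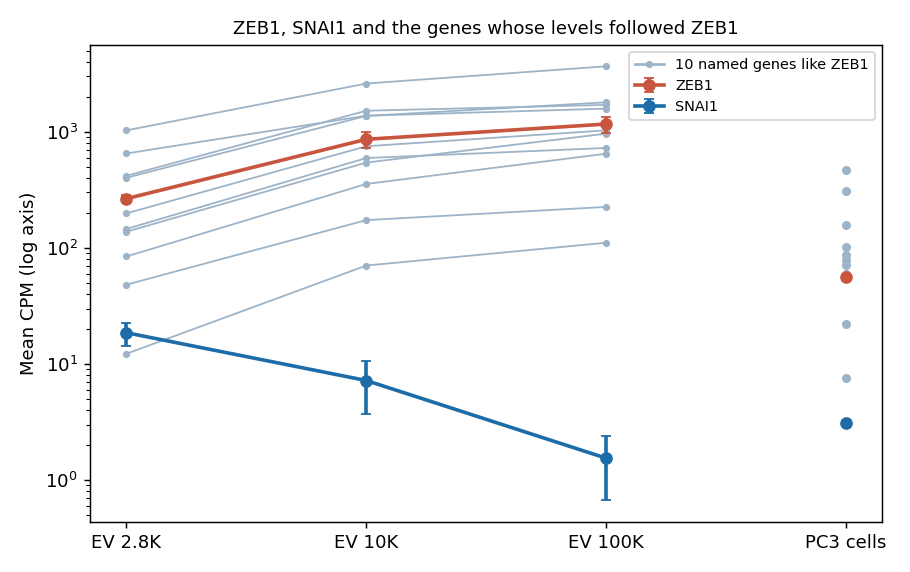
Mean CPM (log axis) of ZEB1, SNAI1 and the 10 named genes like ZEB1 in the 3 pellets and the cell library; bars are the SD over 3 libraries for ZEB1 and SNAI1. ZEB1 and the 10 genes are higher in EV 100K than in EV 2.8K, and SNAI1, at 1.54 CPM in EV 100K and 18.6 CPM in EV 2.8K, is lower.

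Base composition moved with the differences between pellets. The ZEB1 transcript has a GC content of 38.5%, and 10.3% of 11989 tested genes have a lower one, while SNAI1 has 58.2% and TWIST1 57.2%. The other members have 39.1% (ZEB2), 41.8% (SNAI2), 42.8% (ESRP1), 45% (CDH2), 48.6% (CDH1) and 49.8% (GRHL2). The median of the tested genes is 48.2%, and CDH2 and SNAI2 lie below it though neither rose with ZEB1. For EV 100K against EV 2.8K, the median log2 fold change was 0.12 over 1997 genes below 40% GC, 0.02 over 6381 genes from 40 to 55% and -0.53 over 3611 genes at 55% or more. Across genes, which are not independent replicates, GC content and log2 fold change had a Pearson r of -0.156 and a Spearman rho of -0.196. The part of base composition in the levels of ZEB1 and SNAI1 was not tested, and this measure was chosen after their values were seen.

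Genes around the members were read from 6 lists with 155 genes in the table, from which the members were left out. For EV 100K against EV 2.8K, 119 were tested, of which 17 rose and 31 fell, or 40.3%, beside 25.8% of all 15525 genes tested (12% higher and 13.8% lower). Without EV 100K replicate 3, 11 rose and 27 fell (30.6% beside 17.3%). For EV 10K against EV 2.8K, 4 rose and 8 fell, 10.1% beside 6.38% of all genes (4.15% higher and 2.22% lower). In that comparison 8 rose and 13 fell with DESeq2, and 1 rose and 2 fell when only its 6 libraries were fitted (2.56% beside 3.99% of all genes). Without EV 10K replicate 1, 3 rose and 3 fell (4.92% beside 3.3%). Without EV 10K replicate 2, 4 rose and 1 fell (4.07% beside 4.28%), as did 4 and 1 without replicate 3 (4.07% beside 4.29%). The number that fell was 4 without EV 2.8K replicate 2 and 5 without EV 100K replicate 2 or without EV 100K replicate 3. For EV 100K against EV 10K, 3 rose and 8 fell, 9.24% beside 10.9%, but 6 and 6 with RLE scaling, 9 and 11 with DESeq2, and 14 and 15 (25.4% beside 20%) when only the 6 libraries compared were fitted. The counts were 12 and 16 (22.8% beside 15.2%) without EV 2.8K replicate 1, 6 and 4 without EV 10K replicate 1, and 2 and 5 without EV 10K replicate 2. They were 2 and 2 without EV 100K replicate 1 (3.23% beside 5.72%), 2 and 3 without replicate 2 (4.07% beside 6.98%) and 3 and 3 without replicate 3 (4.84% beside 5.98%). These are edgeR calls at an adjusted p of 0.05, and the pellet comparisons share libraries. The lists were chosen with earlier results of these data known, so their calls are a description.

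The list of other transcription factors of epithelial to mesenchymal transition also holds the ID genes and the antisense gene ZEB1-AS1. Of its 12 genes tested, 5 fell in EV 100K against EV 2.8K and 0 rose (41.7% beside 25.8% of all genes). Their median log2 fold change was -0.81 beside -0.06 over all genes. Lower mesenchymal mRNAs in the faster pellets were seen before the set was chosen, so these calls describe that pattern and do not test it. SOX4, a high mobility group factor, was at 52.1 ± 12.9 CPM in EV 100K and 117 ± 28.8 CPM in EV 2.8K (log2 -1.17, SE 0.31, adjusted p = 0.00774). ID1 (log2 -1.70) and ID2 (-2.82), inhibitors of basic helix-loop-helix factors, also fell (adjusted p = 0.0108 and 0.00749). The ID1 call held an adjusted p of 0.000626 to 0.0544 over all alternatives and the ID2 call 0.000994 to 0.0589. Both were lost without EV 2.8K replicate 1, where 2 genes of the list fell and 1 rose. Without EV 100K replicate 3 the number that fell was 3.

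Of 10 epithelial transcription and splicing factors tested, 4 fell and 0 rose (40% beside 25.8% of all genes), with a median of -0.69. ELF3, an epithelial ETS factor, was at 1.68 ± 1.36 CPM in EV 100K and 18.0 ± 2.40 CPM in EV 2.8K (log2 -3.43, SE 0.84, adjusted p = 0.00497). KLF5 was at 48.3 ± 1.56 CPM in EV 100K and 120 ± 37.3 CPM in EV 2.8K (log2 -1.32, SE 0.27, adjusted p = 0.00134). SPDEF, a prostate epithelial ETS factor, had a log2 fold change of -1.83 (SE 0.55, adjusted p = 0.0192), which was lost without EV 100K replicate 1 (adjusted p = 0.0924, the highest of a range from 0.00146), where 2 genes of the list fell. Without EV 2.8K replicate 2, 1 gene of the list rose.

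Of 26 junction and polarity genes tested, 6 rose and 6 fell (46.2% beside 25.8% of all genes), with a median of -0.84. DLG1, a scaffold of the Scribble polarity complex, rose, with 498 ± 52.8 CPM in EV 100K and 164 ± 30.3 CPM in EV 2.8K (log2 1.5996, SE 0.21, adjusted p = 1.28e-05). SCRIB, of the same complex and named after its values were seen, fell (log2 -1.18, SE 0.26, adjusted p = 0.00227). The tight junction gene CLDN3 was at 8.13 ± 2.75 CPM in EV 100K and 59.8 ± 9.89 CPM in EV 2.8K (log2 -2.89, SE 0.53, adjusted p = 0.000464).

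Of 12 cadherin and catenin genes tested, 1 rose and 5 fell (50% beside 25.8% of all genes). The median of the list was 0.06 and thus of the opposite sign to most calls. VCL, which encodes the adhesion protein vinculin, was at 213 ± 17.0 CPM in EV 100K and 636 ± 95.9 CPM in EV 2.8K (log2 -1.59, SE 0.19, adjusted p = 7.06e-06). CTNND1, which encodes p120-catenin, fell by 1.20 and CTNNAL1 by 1.23 on the log2 scale (adjusted p = 0.000375 and 0.000586). CTNNB1, which encodes beta-catenin, had its highest level in EV 10K, with 285 ± 16.6 CPM in EV 2.8K, 531 ± 123 CPM in EV 10K and 337 ± 60.1 CPM in EV 100K. It rose in EV 10K against EV 2.8K (log2 0.90, SE 0.21, adjusted p = 0.0119) and fell in EV 100K against EV 10K (log2 -0.67, SE 0.21, adjusted p = 0.0434). The first call was lost without EV 10K replicate 1 (adjusted p = 0.0859; range 0.00066 to 0.0859 over all alternatives). The second was lost with RLE scaling (adjusted p = 0.0703) and in 5 of the 9 fits with a library left out. Its adjusted p was 0.0575 without EV 2.8K replicate 2, 0.226 and 0.0778 without EV 10K replicates 1 and 2, and 0.134 and 0.256 without EV 100K replicates 2 and 3, in a range of 0.0178 to 0.256 over all alternatives. The 1 gene that rose in EV 100K against EV 2.8K was NECTIN1, named after its values were seen. The number that rose was 2 when EV 2.8K replicate 1 was left out, 2 when EV 10K replicate 2 was, and 0 when any single EV 100K library was.

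Of 23 genes of the TGF-beta and SMAD pathway, 5 rose and 2 fell (30.4% beside 25.8% of all genes), with a median of 0.45. SMAD6, TGIF2 and SKIL rose and LTBP3 fell, which are named here after their values were seen. SMAD5 was at 139 ± 16.6 CPM in EV 100K and 48.7 ± 9.31 CPM in EV 2.8K (log2 1.51, SE 0.27, adjusted p = 0.000359). SMURF2, a ubiquitin ligase of the pathway, rose by 1.12 on the log2 scale (SE 0.24, adjusted p = 0.00188), and the ligand gene TGFB1 had a log2 fold change of -1.44 (SE 0.22, adjusted p = 8.51e-05). Without EV 100K replicate 3, 3 genes rose.

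Of 36 genes for cofactors and turnover of ZEB and SNAIL proteins, 5 rose and 9 fell (38.9% beside 25.8% of all genes), with a median of -0.11. COPS2 (log2 -1.57, SE 0.30, adjusted p = 0.000758) and MTA2 (-0.95, SE 0.31, adjusted p = 0.0315) fell, and are named after their values were seen. Among those that rose were FBXW7 (log2 1.85, SE 0.26, adjusted p = 2.68e-05) and FBXO45 (1.68, SE 0.25, adjusted p = 6.45e-05), which encode substrate receptors of ubiquitin ligases. GSK3B, whose kinase marks SNAI1 protein for degradation, was at 268 ± 16.1 CPM in EV 100K and 108 ± 11.7 CPM in EV 2.8K (log2 1.30, SE 0.19, adjusted p = 6e-05).

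**Figure D4:**
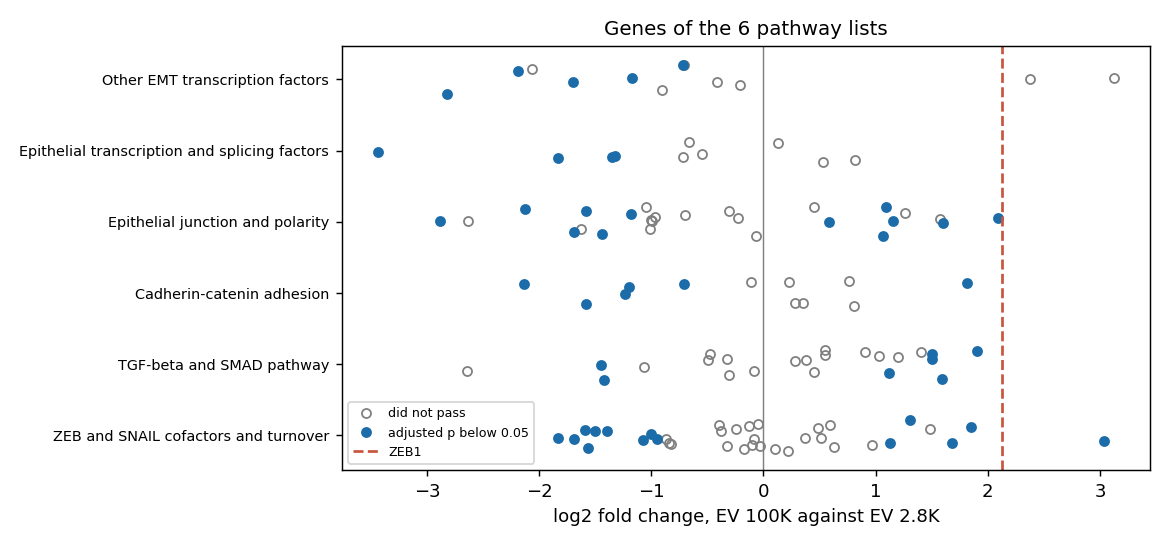
Log2 fold change for EV 100K against EV 2.8K of the 119 tested genes of the 6 lists, filled where the adjusted p was below 0.05; the dashed line is ZEB1 (2.13) and the vertical spread of points within a list has no meaning. The filled points of the list of other epithelial to mesenchymal transition factors and of the epithelial transcription and splicing factors lie below 0. Those of the other 4 lists lie on both sides.

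Against the cells, 133 list genes were tested, of which 1 was higher and 12 lower in EVs, or 9.77% beside 4.43% of all genes. With RLE scaling 3 were higher and 7 lower, and with DESeq2 5 and 6. Without EV 2.8K replicate 1, 4 were higher and 19 lower (17.4% beside 7.03% of all genes). The number higher was 2 when EV 2.8K replicate 2, EV 2.8K replicate 3 or EV 10K replicate 1 was left out. The higher gene was FBXW7, at 38.1 ± 2.10, 81.5 ± 20.3 and 138 ± 26.3 CPM from the slowest to the fastest pellet and 25.4 CPM in the cells (log2 1.58, SE 0.42, adjusted p = 0.00632). CDH11, a mesenchymal cadherin, was lower (log2 -1.82, SE 0.29, adjusted p = 7.63e-08), as were VCL (-1.52, adjusted p = 8.14e-08) and the lysyl oxidase LOXL2, a SNAI1 partner (-2.08, adjusted p = 2.16e-06). HMGA2, a chromatin factor of the mesenchymal programme, was at 81.4 ± 21.7 CPM in EV 2.8K, 65.9 ± 35.9 CPM in EV 10K, 50.0 ± 2.99 CPM in EV 100K and 156 CPM in the cells (log2 -1.27, SE 0.33, adjusted p = 0.00506), a call lost with DESeq2 (adjusted p = 0.131; range 0.00101 to 0.131 over all alternatives).

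Markers of the line and of other cell types were summed in each library. The 11 PC3 line markers summed to 1986 to 2503 CPM in EV 2.8K, 1706 to 2101 in EV 10K, 911 to 1015 in EV 100K and 1744 in the cells, and KLK3 and FOLH1 were at 0 in all 10 libraries. In EV 100K against EV 2.8K, 4 of the 8 line markers tested fell and 0 rose (50% beside 25.8% of all genes). Among those that fell were the epithelial keratin genes KRT18 (log2 -2.09, adjusted p = 5.21e-07, edgeR) and KRT8 (-1.49, adjusted p = 8.47e-06, edgeR). For EV 100K against EV 10K, 5 fell and 0 rose (62.5% beside 10.9%), and 2 to 5 fell when a single library was left out. The part of this shift in the levels of the members and lists was not tested. The 10 fibroblast markers summed to 14.4 to 43.4 CPM in EV 2.8K, 5.91 to 13.1 in EV 10K, 7.94 to 13.7 in EV 100K and 15.4 in the cells, with DCN, LUM, FAP and POSTN at 0 in every library. The 10 leukocyte markers reached at most 8.11 CPM in an EV library and 1.68 CPM in the cells, the 6 endothelial markers 10.5 and 9.38 CPM, and the 6 red cell markers 2.93 and 0 CPM.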

How the data were processed

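The authors deposited whole-number read counts per entry for 10 libraries. Per the submitters' processing notes, bcl2fastq 2.19.1.403, cutadapt 2.7, STAR 2.6.1d, featureCounts 1.6.3 and GRCh38 were used; the strand setting and the treatment of shared reads are stated in no source used here, so antisense reads may be counted with a gene. Symbols came from GENCODE release 29. CPM values were computed with TMM factors over all 10 libraries.

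Differences were tested in R 4.3.3 with edgeR 4.0.16 (filterByExpr with a minimum count of 10, TMM, robust quasi-likelihood F-test, Benjamini-Hochberg over all genes tested, threshold 0.05). Pellets were compared on the 9 EV libraries (15525 genes, 6 residual degrees of freedom, prior 11.7) and EVs with cells on all 10 (22370 genes; the prior was infinite). SEs are the log2 fold change over the root of F. Alternatives included DESeq2 1.42.0. Figures used matplotlib 3.10.9. The fit was tested on simulated data.

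Members and lists were chosen with earlier results of these data known. The text names all members, up to 3 genes with the smallest p per list and comparison among those called with at least 5 CPM in the higher group, from which a part is given, and the 10 genes most like ZEB1 after entries with clone, catalogue or pseudogene names were left out. Results for some genes were left out of the text. Intervals and floors cover counting error only.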

Additional observations from a re-analysis of the deposited data

How the results depend on the processing

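ZEB1 kept its sign in all 4 comparisons under every alternative run (log2 1.62 to 1.88 for EV 10K against EV 2.8K, 2.02 to 2.24 for EV 100K against EV 2.8K, 0.31 to 0.54 for EV 100K against EV 10K, and 3.50 to 3.66 against cells), and SNAI1 kept its sign in all 4 as well. SNAI1 for EV 100K against EV 2.8K was -4.14 without EV 100K replicate 3. The count of genes called for EV 10K against EV 2.8K (990) was 1635 with DESeq2 and 561 when only the 6 compared libraries were fitted, and that for EV 100K against EV 10K (1697) was 2777 in such a 6-library fit. With single libraries left out, the counts ran from 557 to 1173 for EV 10K against EV 2.8K, from 2807 to 4137 for EV 100K against EV 2.8K (4013), from 979 to 2549 for EV 100K against EV 10K and from 826 to 1529 for EVs against cells (992). The count was 557 without EV 10K replicate 1; for EV 100K against EV 10K it was 2549 without EV 2.8K replicate 1, 1033 without EV 10K replicate 3, 979 without EV 100K replicate 1 and 1017 without EV 100K replicate 3; and for EVs against cells it was 1529 without EV 2.8K replicate 1. The cause was not tested.

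Uncertain differences of 4 members changed sign in 12 cases, all with a library left out. Over the left-out libraries, SNAI2 ran from -0.43 to 0.22 for EV 100K against EV 2.8K (0.079 without EV 2.8K replicate 3, 0.22 without EV 100K replicate 3), from -0.62 to 0.15 for EV 10K against EV 2.8K (0.15 without EV 10K replicate 1) and from -0.29 to 0.53 for EV 100K against EV 10K (-0.29, -0.19 and -0.075 without EV 10K replicate 1 and EV 100K replicates 1 and 2). ZEB2 ran from -4.97 (without EV 10K replicate 2) to 6.14 for EV 10K against EV 2.8K, from -0.44 (without EV 100K replicate 3) to 7.01 for EV 100K against EV 10K, and from -0.95 to 1.46 against cells (-0.48 and -0.95 without EV 2.8K and EV 10K replicate 2); for EV 100K against EV 2.8K it was 6.84 without EV 2.8K replicate 2 and 0.85 without EV 100K replicate 3. TWIST1 ran from -0.66 to 0.017 for EV 10K against EV 2.8K (0.017 without EV 2.8K replicate 1), and CDH2 from -0.45 to 0.031 for EV 100K against EV 10K (0.031 without EV 10K replicate 2). For EVs against cells, RLE scaling moved the median of all genes by 0.119 and gave 663 higher and 302 lower calls, against 572 and 420 with TMM.

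With the set number as a replicate block, 1075, 3964 and 1875 genes were called for EV 10K and EV 100K against EV 2.8K and EV 100K against EV 10K, the median of all genes for EV 100K against EV 2.8K moved by 0.181, and ZEB2 for that comparison was 6.10. Deviations of same-numbered libraries correlated by -0.00907 to 0.0481, and 8 of those 9 correlations were positive. In addition, 5 of 9 libraries correlated best with their own number in both other pellets, a hint of a weak effect of the set. The labels give the same set numbers at every spin but do not say what a set is. No pair reached the correlation of 0.1 set for pairing, so the numbers were not used to pair libraries.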
